A study of Apis mellifera with 8 samples.

Results

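The genes described here were those that stood high in 1 queen larval head and not in its 3 companions. Estimated counts were summed per gene and scaled to counts per 1000000 of the library total (CPM), and a gene was chosen when it reached at least 2.5 CPM in 96hQ replicate 3 and at least 3 times its level in each of 96hQ replicates 1, 2 and 4. This rule found 79 of 9161 genes. CPR3 and CPR14, cuticle proteins of the CPR series, were then left out by symbol, leaving 77. The queen values chose these genes, so the height of 96hQ replicate 3 is a description and carries no test. The values of the 4 worker heads were not used by the rule.

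The libraries came from heads of individual honey bee (Apis mellifera) larvae taken 96 h after hatching, 4 queens (96hQ) and 4 workers (96hW). Queen larvae were reared by grafting into cups primed with royal jelly, and worker larvae were left in their own frames. A head here is the front end of the larva, with brain, endocrine glands, mouthparts, developing antennae, cuticle and a little fat body. Each library is 1 head, and the labels give neither the colony nor a moult stage, so replicate 3 is 1 animal and the genes are named by their rule and not as moult genes.

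Insect larvae grow through moults that are driven by pulses of the steroid 20-hydroxyecdysone. The hormone binds the receptor EcR with its partner Usp, and in Drosophila this complex switches on early genes such as E74, E75 and Broad, which encode transcription factors. Under the old cuticle the epidermis then makes a new one, and ecdysis peptides such as ETH and bursicon act at its shedding and hardening. Juvenile hormone, which Kr-h1 reports in insects, decides whether a moult leads to another larva or to a pupa, and it also takes part in caste development of the bee.

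Library totals ran between 22057972 and 23344818 estimated counts in 96hQ and between 19139730 and 21848474 in 96hW, and 78.1% to 81.0% of them fell on transcripts paired with a gene. When the same rule was turned on each library within its own caste, it found 77 genes in 96hQ replicate 3, 16, 5 and 16 in 96hQ replicates 1, 2 and 4, and 7, 3, 7 and 4 in 96hW replicates 1 to 4. Among transcripts paired with no gene, the counts were 77 in 96hQ replicate 3, 47 to 54 in the other queen heads and 25 to 48 in the worker heads. Conversely, 30 genes lay in 96hQ replicate 3 at or under 1/3 of each other queen head. Among the workers, 96hW replicate 1 stood apart: its fat body markers (6 genes, mostly hexamerin storage proteins) summed to 10627 CPM, against 75967 to 91623 CPM in 96hW replicates 2 to 4. Nearly all of that sum is hexamerins. Tsf1, also on the list, went the other way, at 1007 CPM in 96hW replicate 1 and 628 to 983 CPM in the other workers. In bulk samples, fewer cells of a type and less RNA per cell cannot be told apart.

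The chosen genes made up 1.58% of the library of 96hQ replicate 3. Their summed level there was 15753 CPM, against 1792, 1943 and 2914 CPM in 96hQ replicates 1, 2 and 4. In 96hW replicates 1 to 4 the sum was 1604, 1611, 1425 and 1634 CPM, so the worker heads lay close together and under every queen head. By single genes, 31 exceeded 100 CPM in 96hQ replicate 3 and 8 stayed under 5 CPM. The ratio of 96hQ replicate 3 to the highest other queen head was 10 or more for 12 genes and under 4 for 34.

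Most of the group has no name. Of the 77 genes, 69 carry only a LOC symbol in the annotation, for which no role is given here, and 8 have a symbol. Protein-coding entries account for 75 of them, with 1 microRNA and 1 long noncoding RNA. The highest gene was LOC409176, with 1869.9 CPM in 96hQ replicate 3, against 62.5, 68.9 and 303.9 CPM in 96hQ replicates 1, 2 and 4. Its worker heads held 5.49, 5.23, 5.36 and 10.4 CPM, all below every queen head. LOC409628 followed with 1805 CPM in 96hQ replicate 3, against 235, 269 and 494 CPM in the other queens. Its 4 worker heads at 171, 151, 122 and 146 CPM were also below all queens, but by a far smaller margin. LOC409628 overlaps CPR6 in the annotation, and reads of overlapping genes on the same strand can be hard to assign. CPR6 had 46.8 CPM in 96hQ replicate 3, the strands were not compared, and any effect of the overlap was not tested.

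The gene most particular to 96hQ replicate 3 by ratio was LOC102654369. It had 837 CPM there, against 7.59, 9.06 and 10.2 CPM in 96hQ replicates 1, 2 and 4, a ratio of 82.3 to the highest of them. Its worker heads lay at 4.03, 4.5, 3.12 and 4.91 CPM, also low but below every queen head. Without 96hQ replicate 3 its log2 fold change was 1.06 (SE 0.19, adjusted p = 0.00925 by edgeR). The other queens were the lower side of the rule, so this value only describes the gene. LOC413263 reached 619 CPM in 96hQ replicate 3 and 15.2, 19.2 and 23.6 CPM in the other queens, beside 5.64, 18.6, 19.8 and 24.5 CPM in the workers, which overlapped the other queens. LOC724145 had 125 CPM in 96hQ replicate 3, against 0.347, 2.70 and 5.92 CPM in the other queens. In workers it rested on 1 estimated count per head, so its worker level is at the edge of what this depth can show. LOC100576748 likewise had 704 CPM in 96hQ replicate 3 and 9.12, 16.4 and 34.5 CPM in the other queens. Its workers spanned 1.58 to 2.82 CPM, below every queen head.

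**Figure D1:**
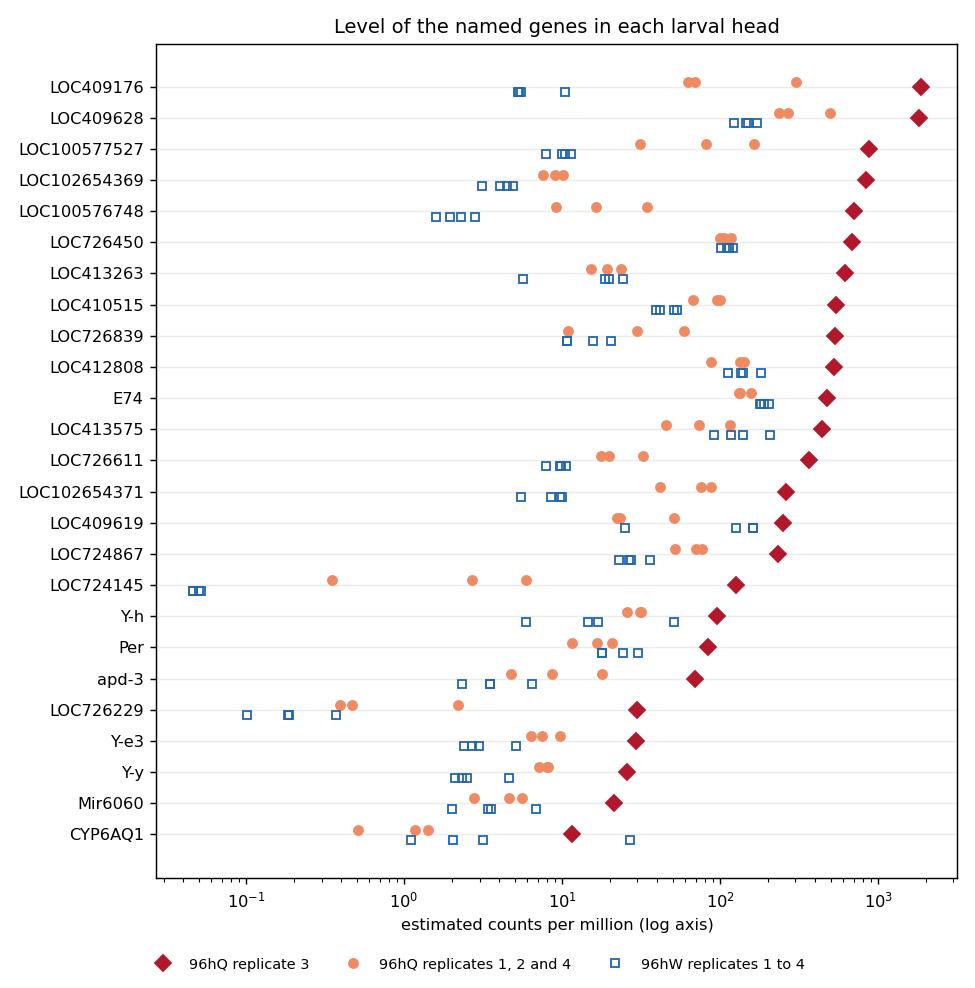
Level of the 25 named genes in each head, in CPM on a log axis, with 96hQ replicate 3 as diamonds, the other 3 queen heads as filled circles and the 4 worker heads as open squares. The diamond is the rightmost queen point of every gene because the rule required it. Worker heads lie below every queen head for LOC409176 and Y-y, among or above the other queen heads for E74 and LOC409619, and above 96hQ replicate 3 in 1 head for CYP6AQ1.

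At the edge of the rule the genes formed a continuum. Just inside lay LOC102654371 at a ratio of 3.00, LOC724867 at 3.01 and Y-h at 3.02, and just outside lay LOC551224 at 2.99, LOC725305 at 2.97 and LOC100576504 at 2.97. With a ratio of 2 in place of 3 the rule found 149 genes, and with 4 it found 43. On the TPM scale, which also corrects for transcript length, it again found 77 genes, of which 64 were shared. E74, at a TPM ratio of 2.95, and Y-h, at 2.79, were among the 13 that dropped out.

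E74, an ETS transcription factor and in Drosophila an early response gene of 20-hydroxyecdysone, was the 1 chosen gene from the moulting hormone list. It had 478 CPM in 96hQ replicate 3, against 158, 134 and 131 CPM in 96hQ replicates 1, 2 and 4. The worker heads lay at 178, 189, 204 and 181 CPM, above the other 3 queen heads and below 96hQ replicate 3. Its transcripts did not move in proportion. XM_006558378 had 227 CPM in 96hQ replicate 3, against 17.1, 18.7 and 22.2 CPM in the other queens and 6.15 to 11.9 CPM in workers. That was 47.5% of the gene in 96hQ replicate 3, against 13.7% in the other queens and 4.8% in the workers. XM_006558376 had 63.5 CPM in 96hQ replicate 3 and was listed at 0 in the other 7 heads. The main transcript of the other heads, XM_006558379, had 79.9 CPM in 96hQ replicate 3, within the 70.2 to 96.0 CPM of the other queens and below the 116 to 135 CPM of the workers. XM_006558374 was listed at 0 in 96hQ replicate 3, beside 18.6 to 25.7 CPM in the other queens and 30.6 to 39.7 CPM in workers. These are kallisto's estimates of how reads divide among overlapping transcripts of 1 gene, and the error of that division was not tested.

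**Figure D2:**
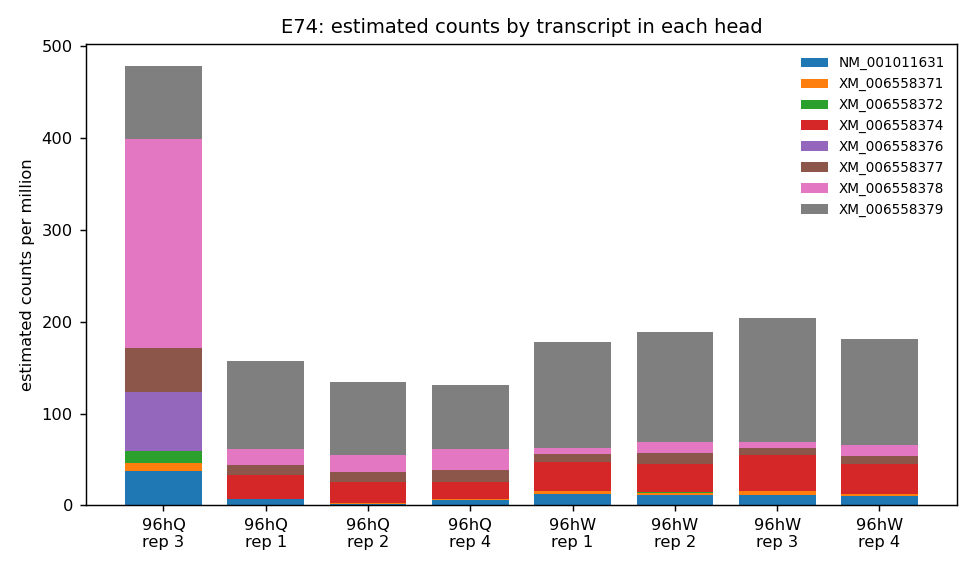
CPM of each E74 transcript, stacked to the gene total, in 96hQ replicate 3, the other queen heads and the worker heads. The transcript XM_006558379 takes the largest share in every head but 96hQ replicate 3, where XM_006558378 takes 47.5%.

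Other genes of the moulting hormone route were listed with E74 to see whether it stood alone. Of 10 such genes in the files, 6 had their highest queen value in 96hQ replicate 3, and E74 was the 1 that met the rule. The 6 include Eth, at 0.091 CPM there, and Pburs and Cyp314a1, at only 1.02 and 1.06 times the next queen. How many of all genes were highest in this head was not counted. E75, an ecdysone-induced nuclear receptor, had 587 CPM in 96hQ replicate 3, against 211, 207 and 272 CPM in the other queens and 244 to 321 CPM in workers. Br-c, the Broad factor, had 254 CPM in 96hQ replicate 3, beside 163, 176 and 161 CPM in the other queens. The receptor gene Ecr did not stand out, with 371 CPM in 96hQ replicate 3, within the 354 to 453 CPM of the other queens. Of the ecdysis genes, Eth reached at most 1.07 CPM, Burs 1.04 CPM and Pburs 1.04 CPM in any of the 8 heads, so they were too low to compare at this depth. Between castes none of the 9 list genes tested passed edgeR's quasi-likelihood test at an adjusted p of 0.01. At an unadjusted p under 0.05 there were 3, beside 3342 of all 8156 genes. DESeq2 called 2, beside 1900, and limma 0, beside 234. Kr-h1, the juvenile hormone response gene, had 105 CPM in 96hQ replicate 3, against 40.8, 55.1 and 52.0 CPM in the other queens and 13.4 to 23.0 CPM in workers. The other juvenile hormone genes listed did not follow it. JHBP-1 was lowest of the queens in 96hQ replicate 3, at 165 CPM, against 293, 545 and 219 CPM, and Jhe, the esterase that breaks the hormone down, had 17.6 CPM there, within the 10.1 to 73.4 CPM of the other queens.

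Of the 8 chosen genes with a symbol, 3 belong to the yellow family, whose members act in cuticle pigmentation in Drosophila and are relatives of the royal jelly proteins. Y-y had 25.7 CPM in 96hQ replicate 3, 8.03, 8.10 and 7.12 CPM in the other queens, and 2.09, 2.49, 4.62 and 2.32 CPM in workers. Y-e3 ran in the same order, with 29.5 CPM in 96hQ replicate 3, 7.47, 6.38 and 9.74 CPM in the other queens, and 2.98, 2.69, 5.13 and 2.41 CPM in workers. For both genes every worker head was below every queen head, and 96hW replicate 3 was the highest worker. Y-h, neighbouring Y-e3 in its ratio but not in its workers, had 95.0 CPM in 96hQ replicate 3 and 25.6, 31.4 and 31.0 CPM in the other queens. Its worker heads spread widely at 50.8, 5.92, 14.7 and 16.8 CPM, with 96hW replicate 1 above the other 3 queens and the rest below them. These 3 genes are among 4 with a yellow symbol in the files. The remaining one, Y-f, went the other way: it had 29.4 CPM in 96hQ replicate 3, the lowest queen, and 33.3, 40.01 and 41.7 CPM in the other queens, against 81.8, 65.7, 63.1 and 55.8 CPM in workers, above every queen head (edgeR adjusted p = 0.00171).

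Of the cuticle list, the 1 chosen gene was apd-3. This apidermin, from a bee family of cuticle proteins, had 69.7 CPM in 96hQ replicate 3 and 4.77, 8.65 and 17.9 CPM in the other queens, beside 3.50, 3.48, 2.33 and 6.41 CPM in workers. The workers overlapped the lowest of the other queens. Other apidermin entries did not share this pattern. Apd-2 had 8.84 CPM in 96hQ replicate 3, 2.56, 0.942 and 20.7 CPM in the other queens, and 29.3 to 67.4 CPM in workers. Apd-1 and a separate Apd-3 entry were near 0 in all heads. The wider cuticle list gives the setting: 19 of its 27 genes had their highest queen value in 96hQ replicate 3. Of these 19, 3 met the rule, and some were near ties, such as CPR27 and CPR19 at 1.01 and 1.04 times the next queen. The same count over all genes was not made. The list summed to 66235 CPM in 96hQ replicate 3, against 31016 to 42718 CPM in the other queens and 9695 to 17853 CPM in workers. CPR genes are part of that list, including the 2 that the symbol rule removed, and how many of the LOC genes encode cuticle proteins was not counted.

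Per, a core gene of the circadian clock, had 83.7 CPM in 96hQ replicate 3 and 11.6, 20.8 and 16.6 CPM in the other queens. Its worker heads, at 30.25, 17.86, 17.99 and 24.23 CPM, overlapped the other queens. The hour of collection is not given by the labels. CYP6AQ1, a cytochrome P450, a class of enzymes that oxidize hormones and foreign compounds, had 11.5 CPM in 96hQ replicate 3 and 1.17, 0.514 and 1.42 CPM in the other queens. In workers it was at 1.10, 2.04 and 3.16 CPM in replicates 1 to 3 and at 26.9 CPM in 96hW replicate 4, above even 96hQ replicate 3. Mir6060, a microRNA gene, had 21.2 CPM in 96hQ replicate 3, 2.78, 4.63 and 5.56 CPM in the other queens, and 6.84, 3.53, 3.39 and 2.00 CPM in workers. Reads of this poly(A) library fall on the entry for its hairpin and do not measure the mature microRNA.

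All 4 worker heads were below 96hQ replicate 3 for 75 of the 77 genes, and 96hQ replicate 3 was at least 3 times every worker head for 67. Over all genes tested, 96hQ replicate 3 was above all 4 workers for 20.7% and at least 3 times every worker for 2.32%, but its height is what chose the genes, so these counts only describe them. The exceptions were CYP6AQ1 in 96hW replicate 4 and LOC410149 in all workers. LOC410149, named after its values were seen, had 2.93 CPM in 96hQ replicate 3 and 0.821, 0.133 and 0.858 CPM in the other queens, against 7.31, 21.0, 16.3 and 18.4 CPM in workers. Set against 96hQ replicates 1, 2 and 4, which lacked the height that chose the genes, the workers lay below every one of them for 35 genes, above every one for 4 and among them for 38.

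For the genes below, LOC726229 aside, the level in 96hQ replicate 3 extended a gap that the other queens already had. LOC726950 had 273 CPM in 96hQ replicate 3, 12.94, 11.99 and 35.1 CPM in the other queens, and 1.10, 0.945, 0.641 and 0.975 CPM in workers. LOC726611 had 365 CPM in 96hQ replicate 3, 17.7, 19.7 and 32.4 CPM in the other queens, and 9.87, 9.75, 7.87 and 10.6 CPM in workers. LOC100577527 had 878 CPM in 96hQ replicate 3, 30.95, 81.26 and 162.73 CPM in the other queens, and 9.98, 11.35, 7.87 and 10.4 CPM in workers. In each of these genes the queens without replicate 3 were spread more widely than the workers, and the lowest of them was still above every worker. LOC410515 kept a narrower gap, with 541 CPM in 96hQ replicate 3, 95.15, 67.68 and 99.2 CPM in the other queens, and 53.24, 51.06, 39.36 and 41.87 CPM in workers. LOC724867, near the limit of the rule, had 232 CPM in 96hQ replicate 3, 51.48, 70.17 and 77.14 CPM in the other queens, and 27.43, 36.18, 22.98 and 26.69 CPM in workers. LOC726229, a low gene, had 29.7 CPM in 96hQ replicate 3, 0.391, 0.471 and 2.18 CPM in the other queens, and 0.369, 0.101, 0.183 and 0.186 CPM in workers, which are a few estimated counts per head. Its 9 and 11 estimated counts in 96hQ replicates 1 and 2 were close to the 7.1 of 96hW replicate 1, so no gap is read for it (adjusted p = 0.0605 by edgeR without 96hQ replicate 3). LOC102654211 was listed at 0 in all 4 worker heads. It had 6.96 CPM in 96hQ replicate 3 and 0.650, 0.316 and 1.33 CPM in 96hQ replicates 1, 2 and 4. Its floor in workers was set at 3 counts over the 4 libraries pooled, 0.0363 CPM. LOC102654211 was at least 192-fold above that floor in 96hQ replicate 3 and at least 62.4-fold in the 4 queens pooled. Both bounds rest mostly on the head that chose the gene, so they only describe it.

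For others the workers sat with the other queens. LOC726450 had 680.4 CPM in 96hQ replicate 3 and 118, 105 and 99.95 CPM in the other queens, beside 120, 111, 101 and 114 CPM in workers. LOC412808 had 525 CPM in 96hQ replicate 3 and 134, 87.9 and 142 CPM in the other queens, beside 181, 135, 112 and 140.3 CPM in workers. In LOC413575 the workers even exceeded most of the other queens, with 444 CPM in 96hQ replicate 3, 45.13, 74.02 and 114.78 CPM in the other queens, and 91.7, 139, 117 and 207 CPM in workers. LOC726839 had 535 CPM in 96hQ replicate 3, 10.86, 29.88 and 58.86 CPM in the other queens, and 10.78, 20.35, 15.76 and 10.69 CPM in workers, so the castes overlapped. LOC409619 had 249.8 CPM in 96hQ replicate 3, against 23.1, 22.4 and 51.0 CPM in the other queens. Its workers split, with 25.2 CPM in 96hW replicate 1 and 161, 161 and 126 CPM in 96hW replicates 2, 3 and 4. The low head is the one with the low fat body sum, and the part of fat body in this difference was not tested.

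**Figure D3:**
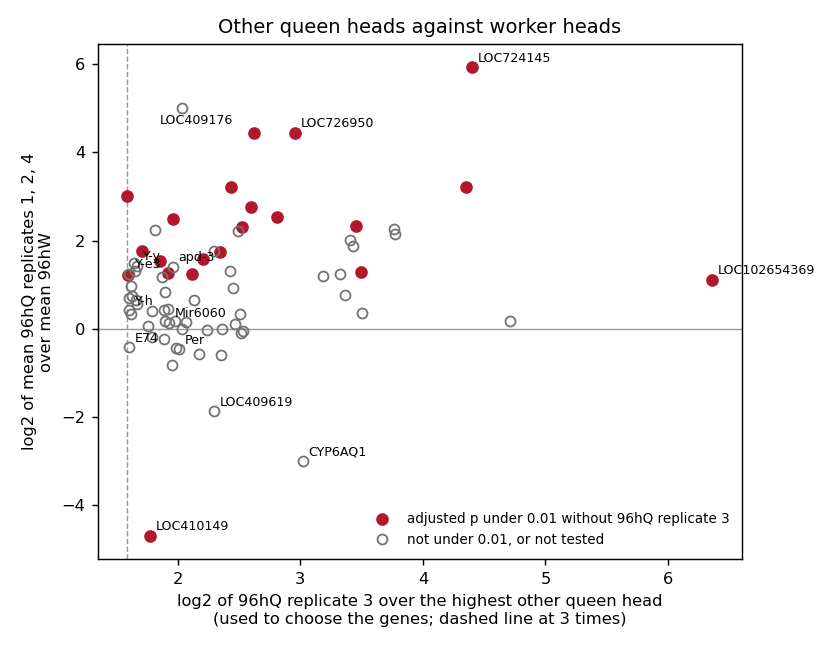
Each point is a chosen gene: across, log2 of 96hQ replicate 3 over the highest other queen head, which chose the genes, and up, log2 of the mean of 96hQ replicates 1, 2 and 4 over the mean of the 4 worker heads, in CPM. Filled points passed edgeR's test between castes without 96hQ replicate 3 (20 higher in 96hQ and 1 in 96hW), and LOC102654211, at 0 in workers, is not drawn.

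The caste comparison was fitted with edgeR on all 8156 genes that passed a filter on low counts, 76 of the chosen genes among them. The remaining one, LOC724892, had 67 estimated counts in 96hQ replicate 3 and at most 5 elsewhere. In queens against workers, 5.21% of all genes tested were higher in 96hQ at an adjusted p under 0.01, and 3.4% were higher in 96hW. Among the chosen genes the counts were 1 (1.32%) and 0. The 1 was LOC102654371, with 262 CPM in 96hQ replicate 3 and 75.5, 41.7 and 87.4 CPM in the other queens, against 9.67, 10, 5.49 and 8.45 CPM in workers. Its log2 fold change was 3.89 (SE 0.65, adjusted p = 0.00573 by edgeR). The call was lost when 96hQ replicate 4 or any 1 of the 4 worker heads was left out, with edgeR adjusted p between 0.0148 and 0.0219. The median log2 fold change was 2.18 over the chosen genes, beside 0.0 over all genes tested. DESeq2 called 23 of the chosen genes, 22 of them higher in 96hQ, beside 1900 of all genes. It gave no adjusted p for many of the chosen genes, so its 23 are not out of all 76. Among these were LOC102654369, LOC100576748, LOC726450, LOC413263, LOC410515, LOC724145, LOC726611, LOC409619 and Per. These figures hold the queen values that the rule used, and nothing about the caste is read from them.

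Leaving 96hQ replicate 3 out of the fit removes the head that chose the genes. Then 20 of the 76 (26.3%) were higher in the remaining queens, beside 5.54% of all genes tested, and 1 (1.32%), LOC410149, was higher in workers, beside 4.03%. The median log2 fold change was 0.90, beside 0.01. For LOC409176 it was 4.39 (SE 0.66, adjusted p = 0.00498 by edgeR) and for LOC102654371 it was 2.99 (SE 0.31, adjusted p = 0.00196). E74 turned its sign, with 0.34 (SE 0.48, adjusted p = 0.627) over the 8 heads and -0.46 (SE 0.11, adjusted p = 0.0184) without 96hQ replicate 3, neither past the threshold. Per, LOC726450, LOC412808 and LOC413575 also turned from positive to negative without a call. The other queen values were the lower side of the rule, so these counts remain a description.

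The levels themselves were also set side by side. With 96hQ replicates 1, 2 and 4 alone, the queens were above all workers for 34 of the 76 genes (44.7%), beside 23.2% of all genes tested, and below all of them for 4 (5.26%), beside 14.2%. With 96hQ replicate 3 added, all 4 queen heads were above all 4 worker heads for 34 (44.7%), beside 11.7%, and below them for 1 (1.32%), beside 12.7%. The rule placed replicate 3 high in the chosen genes and not in the rest, so nothing is read from this second pair of shares.

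The second queen was usually the same head. Among 96hQ replicates 1, 2 and 4, replicate 4 was the highest for 51 of the 76 genes tested (67.1%), beside 24.7% of all genes tested. The share was 65.8% on both the TMM scale and TPM, beside 26.3% and 20.4% of all genes. LOC409176, with 304 CPM in 96hQ replicate 4 against 62.5 and 68.9 CPM in replicates 1 and 2, is an example, while LOC726450, with 99.95 CPM against 118 and 105 CPM, is not. The choice of genes set no order among these 3 heads.

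In the worker heads, which the rule left free, the chosen genes had a wider spread than most. The median ratio of the highest to the lowest worker head was 1.79 over the 76 genes, beside 1.25 over all genes tested. Over 96hQ replicates 1, 2 and 4, whose highest value the rule capped, it was 1.84, beside 1.23. The chosen genes had fewer counts in workers, with a median worker mean of 5.03 CPM, beside 31.4 CPM, and counting error is larger at such levels. No worker head took the place of 96hQ replicate 3 for the group. A worker head reached 2.5 CPM and 3 times each other worker for 2 of the genes (2.63%), beside 0.245% of all genes tested. These were Y-h in 96hW replicate 1, at 3.03 times the next worker, and CYP6AQ1 in 96hW replicate 4, at 8.52 times.

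Which worker was highest depended on the scale. In CPM, 96hW replicate 1 was the highest worker for 47.4% of the chosen genes, beside 50.1% of all genes tested, 96hW replicate 2 for 17.1%, beside 19.3%, 96hW replicate 3 for 10.5%, beside 19.1%, and 96hW replicate 4 for 25% of them, beside 11.4%. With TMM scaling, which allows for the few abundant genes that fill a library, the shares in 96hW replicate 4 were 30.3% of the chosen genes and 22.5% of all genes, and in TPM they were 18.4% and 6.8%. 96hW replicate 3 was the lowest of the 4 workers for 42.1% of the chosen genes, beside 22.4%. The head with the low fat body sum, 96hW replicate 1, was then left out. Of the other 3, replicate 4 was the highest for 43.4% of the chosen genes, beside 21.6% of all genes. Replicate 3 was the lowest for 50%, beside 28.2%. The cuticle list had the same order in these 3 heads, with 15305, 9695 and 17853 CPM in 96hW replicates 2, 3 and 4, and its part in the order was not tested.

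**Figure D4:**
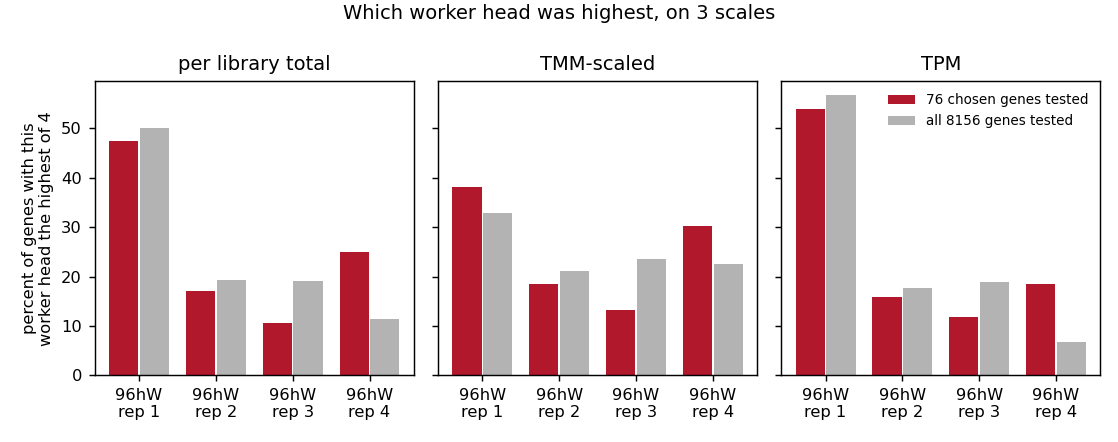
Percent of genes whose highest worker head was each of 96hW replicates 1 to 4, for the 76 chosen genes tested (dark bars) and all 8156 genes tested (grey bars), on 3 scales. The share in 96hW replicate 4 is above that of all genes on each scale and the share in 96hW replicate 3 below it, while the height of 96hW replicate 1 falls with TMM scaling.

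In the annotation the genes were spread over 15 linkage groups, with a few close together. Within 4 intervening genes there were 11 neighbouring pairs, holding 20 of the 77 genes. LOC726206 and LOC726229 on linkage group 15 had no gene between them, nor had LOC100576284 and LOC100578730 on linkage group 2. On linkage group 7, LOC412810, LOC412808 and LOC409619 lay in a row with few genes between, but their workers differed: 26.5 to 39.6 CPM in LOC412810, with little spread, and 25.2 to 161 CPM in LOC409619. At 56.6%, the share of genes with 1 transcript in the files was close to the 57.7% of all genes tested, and the median longest transcript was 1886 bases, beside 2003 bases. Another annotated gene overlapped 31 of the 77, among them LOC551938 and LOC724867, which overlap each other and were both chosen. The same counts of neighbours and overlaps over all genes were not made, so nothing is read from them. Gene order and overlap come from a later assembly than the transcripts.

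Other tissues of the head did not all move with 96hQ replicate 3. How many of all genes were highest or lowest in this head was not counted. Muscle markers (7 genes) had none highest there among the queens and 4 lowest. TpnCIIIa, 1 of the 4, reached at most 0.366 CPM in any head. The others were close to 96hQ replicate 2, such as TpnCIIa at 49.6 against 51.7 CPM. The muscle sum was 2033 CPM in 96hQ replicate 3, against 1919 to 4366 CPM in the other queens. Fat body markers had none of 6 highest there, with a sum of 19114 CPM in 96hQ replicate 3, within the 11588 to 25720 CPM of the other queens. Neuron markers had 7 of 20 highest there, with a sum of 326 CPM in 96hQ replicate 3, within the 279 to 346 CPM of the other queens. Silk gland fibroins were near 0, at a sum of 2.86 to 4.81 CPM over all 8 heads. The 4 immune peptide and enzyme genes had none highest in 96hQ replicate 3, where they summed to 53.6 CPM, within the 41.3 to 160.3 CPM of the other queens. Among the queens, the cuticle, moulting hormone and pigment lists stood highest in 96hQ replicate 3, at 1.55 to 1.56 times the next queen. Each holds genes that met the rule, and the pigment sum of 336 CPM there was below the 398 CPM of 96hW replicate 3. Without those genes the ratio was 1.46 for cuticle (3 genes removed, CPR3 and CPR14 included), 1.32 for moulting hormone (E74 removed) and 1.18 for pigment (Y-y and Y-h removed). These were not rises of the whole list. In the moulting hormone list E75 stood at 2.16 and Br-c at 1.44 times the next queen, but Ecr at 0.818, and Usp was the lowest queen. In the pigment list TyHyd stood at 1.25 times and Y-f at 0.705 times. The part of these lists in the 77 genes was not tested. The juvenile hormone list had the lowest sum of the queens in 96hQ replicate 3, at 288 CPM, against 344 to 658 CPM in the other queens.

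**Figure D5:**
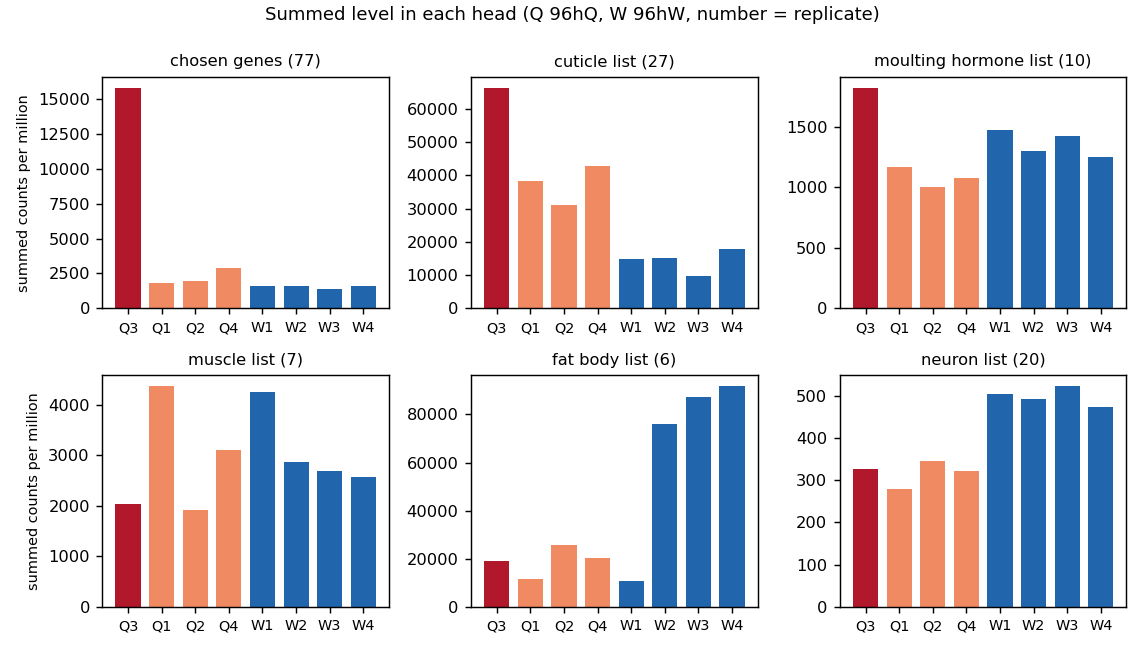
Summed CPM in each head of the 77 chosen genes and of 5 marker lists, with 96hQ replicate 3 (dark red), the other queens (light red) and the workers (blue). The chosen genes stand at 15753 CPM in 96hQ replicate 3 and at 2914 CPM or less in the rest, the cuticle and moulting hormone sums, which hold genes that met the rule, are also highest there, and the muscle, fat body and neuron sums lie within the range of the other queens.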

How the data were processed

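Total RNA of single heads was poly(A)-selected and sequenced with a strand-specific kit. The authors quantified each library with kallisto (version not given in the sources used here) over 28739 transcripts. Estimated counts and TPM were deposited for each transcript, and neither was normalized between libraries. The study names an Ensembl transcript set, whereas the files carry RefSeq accessions. Of the transcripts, 17723 were paired with 9161 genes by accession, using RefSeq of the later assembly Amel_HAv3.1 for symbols, order and overlap only, and 11016 were left unpaired. Transcript lengths in the deposited files were used as given.

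Gene sums of estimated counts were rounded, filtered at 5 counts in 4 or more of 8 libraries and compared by edgeR 4.0.16 under R 4.3.3 (TMM, quasi-likelihood F test, caste only, Benjamini-Hochberg over 8156 genes, threshold 0.01, as in the study, which used sleuth). Fold changes are 96hQ over 96hW. DESeq2 1.42.0 and limma 3.58.1 on log2(TPM + 1) were alternatives. The fit was tested on simulated data.

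The genes and the marker lists were chosen with earlier results of these data known. Genes were named by rule: the 12 highest in 96hQ replicate 3, the 6 of largest ratio, the 6 highest in workers, those with a symbol, those passing the caste test and the 3 nearest the limit on each side. LOC726950, LOC410149, LOC724892, LOC102654211 and the annotated neighbours were named after their values were seen. Of the listed symbols, those absent from the files were left out, and the chitin list had none. Protein and promoter sequences were not analysed here. Replicates are separate heads, and p-values measure the spread between heads.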

Additional observations from a re-analysis of the deposited data

Results flagged for a closer look

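Of 43 groups of 4 heads examined for a head far from the others, 4 had one, where chance gives about 1 in 20. CYP6AQ1 had 26.9 CPM in 96hW replicate 4, against 1.10 to 3.16 CPM in the other workers. LOC409176 had 10.4 CPM in the same head, against 5.23 to 5.49 CPM in the other workers. Y-y had 4.62 CPM in 96hW replicate 3, against 2.09 to 2.49 CPM in the other workers. The juvenile hormone list (Jhe, Kr-h1 and JHBP-1) summed to 658 CPM in 96hQ replicate 2, against 288 to 344 CPM in the other queens.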

How the results depend on the processing

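The rule found 149 genes at 2 times and 43 at 4 times, and 69 to 115 under the other floors, scales and omitted queens. Of the 76 chosen genes tested, 1 passed between castes, beside 702 of all 8156 genes. The counts were 0 beside 10 with the replicate block, 23 beside 1900 by DESeq2 and 2 beside 234 by limma. At a threshold of 0.05 they were 30 beside 2189, and at an unadjusted p under 0.05 they were 48 beside 3342. Leaving out 1 head gave 0 to 21, beside 145 to 781 of all genes, with 21 beside 781 without 96hQ replicate 3. The replicate numbers share no source in the labels, and deviations of same-numbered heads correlated at -0.05 to 0.1. LOC102654371 missed the threshold with the replicate block (adjusted p = 0.0328 by edgeR) and without 5 of the 8 heads in turn. DESeq2 with 8 heads and edgeR without 96hQ replicate 3 shared 11 genes. Some genes called by the latter had no DESeq2 adjusted p and could not be shared, such as LOC102654369, LOC100576748, LOC724145 and LOC726611. Among the 42 genes at 5 CPM or more in a worker, the highest worker was 96hW replicate 1 for 20, replicate 2 for 10, replicate 3 for 2 and replicate 4 for 10. Replicates 2 and 4 were thus level, and the same count over all genes at this level was not made. Log2 fold changes turned sign without 96hQ replicate 3 for LOC726450 (leaving out 1 head, -0.09 to 1.57), LOC412808 (-0.26 to 1.04), E74 (-0.46 to 0.55), LOC413575 (-0.9 to 0.7) and Per (-0.52 to 0.95), and without 96hW replicate 4 for CYP6AQ1 (-3.08 to 0.93). They also did by limma for E74 (-0.2) and LOC413575 (-0.34), and with the replicate block for LOC413575 (-0.3); the cause was not tested. Over 25 named genes, 308 of 338 values kept direction and side of the threshold. Orders without 96hW replicate 1, scales for 96hQ replicate 4 and list sums without genes that met the rule were added after seeing the data. One head stands behind the choice of genes, its moult stage is not recorded, and genes under 1 CPM rest on few counts.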
